A study of Arabidopsis thaliana with 12 samples.

Results

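The genes described here are 59 loci for proteins of the cytosolic ribosome of *Arabidopsis thaliana*. They were chosen by locus identifier as the genes for the acidic stalk proteins RPP0 to RPP2, the large-subunit proteins RPL3 to RPL12, and the small-subunit proteins RPSA to RPS18, and they form 23 families of paralogs. They are 59 of the 33602 loci in the count tables, and all 59 passed the filter on low counts, which left 18356 genes to test. The 4 genotypes, all in the Col-0 ecotype, were *pifq* (*pif1pif3pif4pif5*, mutant in 4 PHYTOCHROME-INTERACTING FACTOR genes), *pif145* (*pif1pif4pif5*), *pif3* and the wild type (WT), with 3 libraries each and 12 in all. Whole seedlings of every genotype had 3 h of white light and a 15 min far-red pulse, then 2 days of darkness at 21 °C. Sequencing of transcript 3′ ends addressed what PIF3 contributes to expression in darkness, and what its 3 relatives add to it.

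Cytosolic ribosomes translate the messenger RNA of nuclear genes. Each has a small subunit, which decodes the message, and a large subunit, which joins the amino acids. In *Arabidopsis* these proteins are encoded by small families of paralogs whose transcripts are abundant in growing and dividing cells. PIFs are transcription factors that hold back greening and leaf expansion of seedlings in darkness.

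The annotated proteins matched the family names. Identity was 54.8% to 100% in the 49 pairs within a family and at most 37.4% in the 1662 pairs between families, and the closest relative of each of the 59 proteins lay in its own family. The 3 RPS18 genes encode identical proteins of 152 residues, and the RPL9 genes *PGY2* (AT1G33140) and AT1G33120 encode an identical protein of 194 residues, so in these the paralogs differ in transcript and not in product.

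Library totals ranged from 23907577 to 41247734 counts, and levels are given as CPM, a locus's counts scaled to a common library total. Counts come from the last 500 bases of a transcript, and each of the 59 transcripts is at least that long, so CPM values of different genes cover the same length. *PIF3* averaged 0.945 CPM in *pifq*, 46.9 in *pif145*, 1.14 in *pif3* and 61.7 in WT, and *PIF1* 0.0955 CPM in *pifq*, 0.145 in *pif145*, 9.3 in *pif3* and 9.75 in WT. *PIF4* averaged 2.76 CPM in *pifq*, 5.52 in *pif145*, 5.01 in *pif3* and 3.29 in WT, so its tags do not check the labels. In whole seedlings, fewer cells of a type and less RNA per cell cannot be told apart. The summed level of 5 genes of dividing cells (*CYCB1;1*, *CYCA1;1*, *CDKB1;1*, *CDKB2;1* and *SYP111*, of which 4 rose in *pifq*/WT, and 5 with the replicate number as a block) was 45.7 to 54.9 CPM in *pifq*, 32.7 to 36.9 in *pif145*, 25.8 to 31.8 in *pif3* and 20.3 to 27 in WT. That order is the one of the ribosomal protein genes, and its part in the results was not tested. Sums of 8 seed storage genes were 98.4 to 185 CPM in *pifq*, 85 to 169.7 in *pif145*, 653 to 1049 in *pif3* and 592 to 1472 in WT, and their part was not tested. The largest term in WT was *CRA1*, with means of 61.2 CPM in *pifq* and 637 in WT. *SESA3* (2.11 and 1.86) and *SESA4* (0.15 and 0.0894) were higher in *pifq*. Of the 7 tested, 4 were lower in *pifq*/WT, and 6 with the replicate number as a block, against 8.26% and 25.9% of all genes. Sums of 6 root markers were 39.3 to 54.4 CPM in *pifq* and 46.5 to 54.4 in WT, but single markers went both ways. Means in *pifq* and WT were 26.2 and 33.7 CPM for *SHR*, 0.445 and 0.521 for *PLT1*, and 0.363 and 0.395 for *PLT2*. They were 13.7 and 12.6 for *SCR*, 4.14 and 2.96 for *SHV2*, and near 0 for the defining marker *WOX5* (0.217 and 0.127 CPM). Sums of 2 shoot epidermis markers were 1416 to 1911 CPM in *pifq* and 1703 to 2099 in WT. Their means in *pifq* and WT were 1500 and 1800 CPM for *PDF1* and 107 and 92.9 for *ATML1*.

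Together the 59 genes stood at 70093, 68704 and 69593 CPM in the *pifq* libraries, 51483, 59456 and 56310 in *pif145*, 49782, 51409 and 48371 in *pif3*, and 37290, 39956 and 39137 in WT. Every *pifq* library was above all others and every WT library below all others, while the lowest *pif145* library was within 100 CPM of the highest *pif3* library. The mean sum was 1.79 times the WT mean in *pifq*, 1.44 times in *pif145* and 1.29 times in *pif3*. The share of the scaled total was 6.87% to 7.01% in *pifq* and 3.73% to 4% in WT. Of the raw counts it was 6.27% to 7.02% in *pifq* and 3.85% to 4.43% in WT. The 9 stalk genes together averaged 13333 ± 1671 CPM in *pifq* and 6722 ± 869 in WT (SD, n = 3 each, as for all means below). The 25 large-subunit genes averaged 32550.2 ± 739.6 CPM in *pifq* and 18665 ± 774 in WT, and the 25 small-subunit genes 23580 ± 1802 in *pifq* and 13407 ± 332 in WT. These are 1.98, 1.74 and 1.76 times the WT mean.

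**Figure D1:**
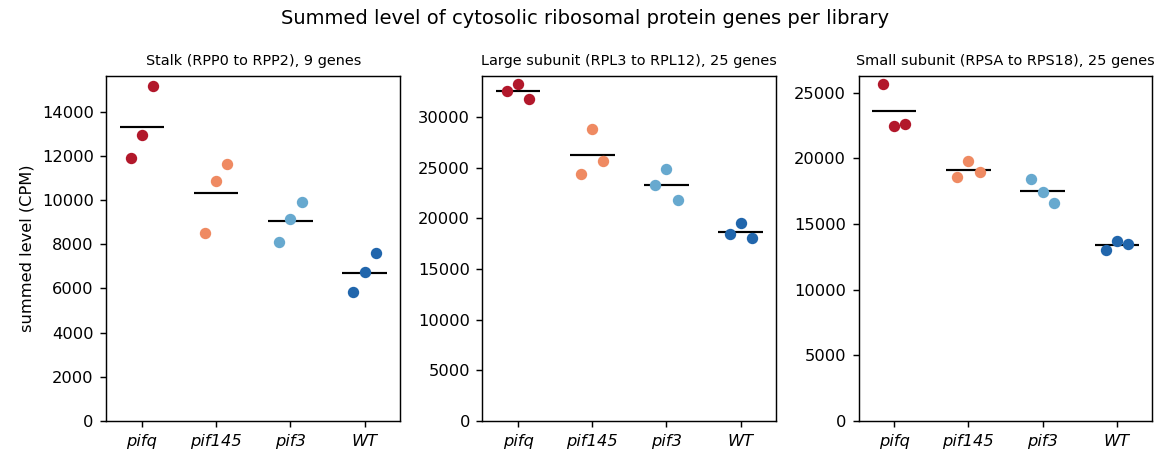
Summed level of the stalk, large-subunit and small-subunit genes in each library, in CPM of the TMM-scaled library total, from *pifq* at the left to WT at the right. Points are libraries and bars are means of 3. In each panel all *pifq* points lie above all WT points, with the *pif145* and *pif3* means between them.

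The comparison of *pifq* with WT shows the transcripts of seedlings mutant in all 4 PIF genes. In it, 51 of the 59 genes rose at an adjusted p of at most 0.05 (edgeR's quasi-likelihood test, adjusted over 18356 genes), against 10.1% of all genes. All 59 estimates were positive, against 8787 of all 18356 genes. The median log2 fold change was 0.87 (1.83-fold), beside -0.03 over all genes, with quartiles of 0.71 and 0.96. The SD over the 59 genes was 0.264, and the SD over all genes 0.759. The median SE of a single gene was 0.173 in the fit without the replicate block. That SE includes differences shared within replicate numbers, so it is not the error of the paired change. The common dispersion, edgeR's measure of spread between libraries, was 0.0572 without the block and 0.00719 with it. Rises of at least 2-fold were found in 12 genes, against 4.92% of all genes. In 52 genes every *pifq* library was above every WT library, against 17.2% of all genes. Within replicate 1, sequenced on a GAIIx, the median log2 ratio was 0.89, and within replicates 2 and 3, sequenced on a HiSeq2000, it was 0.79 and 0.86. The count of 51 was 31 without replicate 2 of every genotype and 19 without replicate 3, with medians of 0.80 to 0.90 without any 1 replicate number. No gene of the 59 passed in the lower direction by edgeR or DESeq2 in any of the 5 comparisons, and by edgeR none had an unadjusted p under 0.05 in that direction. The background of lower calls was 8.26% in *pifq*/WT, 1.34% in *pif145*/WT, 0.0109% in *pif3*/WT, 0.621% in *pifq*/*pif145* and 5.2% in *pifq*/*pif3*. At an unadjusted p under 0.05 by edgeR, 2778, 1346, 304, 770 and 2169 of all 18356 genes were lower, in the same order.

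**Figure D2:**
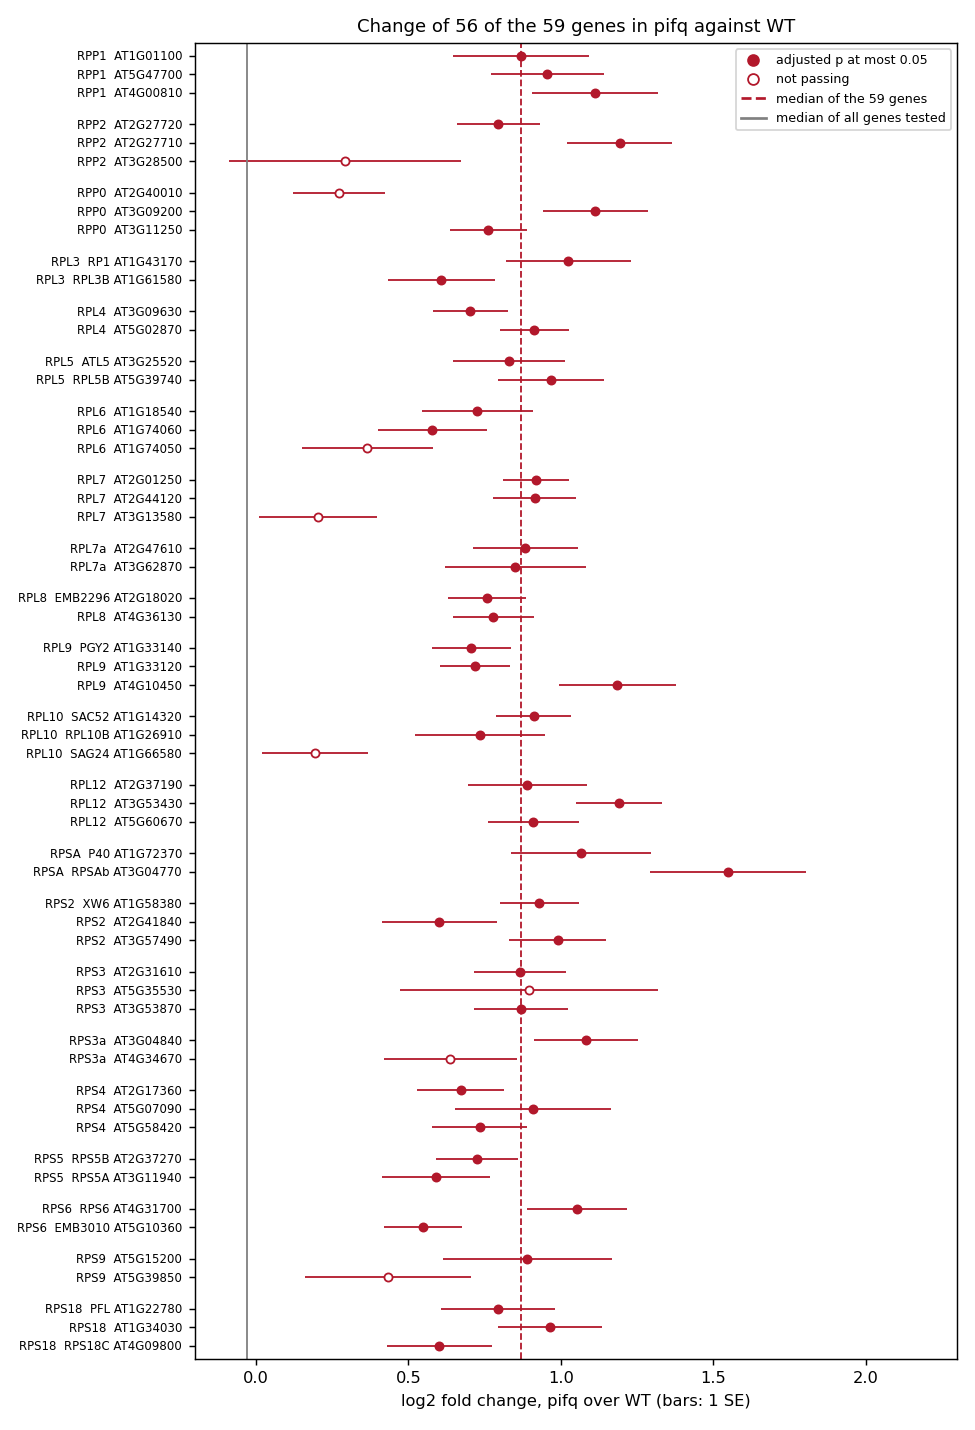
Log2 fold change of 56 of the 59 genes in *pifq* over WT, grouped by family, with bars of 1 SE. Filled points passed at an adjusted p of at most 0.05. Most points lie near the median of the 59 genes at 0.87, away from the median of all genes at -0.03.

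The stalk of the large subunit recruits elongation factors. RPP0 is its base, to which dimers of RPP1 and RPP2 attach. Of the 9 stalk genes 7 rose in *pifq*/WT (median log2 0.87). AT3G09200, the main RPP0 gene (chromosome 3, 2823088 to 2825241 in TAIR10.1), stood at 4149, 4555 and 5147 CPM in *pifq* libraries, against 1789, 2189.5 and 2427 in WT libraries. The groups lie apart, and the gene rose by log2 1.11 (SE 0.17, edgeR adjusted p = 0.000854). Its gene model overlaps AT3G09210 on the same strand. The RPP2 gene AT2G27710 stood at 1544, 1193 and 1660 CPM in *pifq* and 687, 532 and 704 in WT, also without overlap, and rose by log2 1.19 (SE 0.17, edgeR adjusted p = 0.00053). AT1G01100, the most abundant RPP1 gene, averaged 3979 ± 863 CPM in *pifq* and 2177 ± 452 in WT and rose by log2 0.87 (SE 0.22). AT4G00810, a minor RPP1 gene at 119.6 ± 30.1 CPM in *pifq* and 55.3 ± 5.76 in WT, rose by log2 1.11 (SE 0.21). The RPP1 gene AT5G47700, the RPP2 gene AT2G27720 and the RPP0 gene AT3G11250 rose by log2 0.96, 0.79 and 0.76.

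Of the 25 large-subunit genes 22 rose (median log2 0.83). *SAC52* (AT1G14320, chromosome 1, 4888114 to 4889704) encodes RPL10, which joins the large subunit late in its assembly, and was the most abundant of the 59. It stood at 9893, 9374 and 9287 CPM in *pifq* and 5051, 5346 and 4789 in WT. The libraries do not overlap, and the gene rose by log2 0.91 (SE 0.12, edgeR adjusted p = 0.000354). RPL3 lies near the centre where peptide bonds form, and its main gene *RP1* (AT1G43170) averaged 270.4 ± 67.5 CPM in *pifq* and 133 ± 17.8 in WT, a rise of log2 1.02 (SE 0.21). The RPL4 genes AT3G09630 and AT5G02870 rose by log2 0.70 (SE 0.12) and 0.91 (SE 0.11). RPL5 binds the 5S rRNA, and its genes *ATL5* (AT3G25520) and *RPL5B* (AT5G39740) rose by log2 0.83 (SE 0.18) and 0.97 (SE 0.17).

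RPL12 sits at the foot of the stalk. AT3G53430 rose by log2 1.19 (SE 0.14), and its more abundant paralog AT2G37190 by log2 0.89 (SE 0.20). Among the RPL9 genes, AT4G10450 stood at 399.6, 315 and 278 CPM in *pifq* and 169, 140 and 127 in WT and rose by log2 1.19 (SE 0.19). *PGY2*, named for its mutant's effect on leaf polarity, rose by log2 0.71 (SE 0.13), and AT1G33120, which encodes the same protein, by log2 0.72 (SE 0.12). RPL8, like RPL3, lies near the peptidyl transferase centre, and its genes *EMB2296* (AT2G18020) and AT4G36130 rose by log2 0.76 and 0.78. The RPL7a genes AT2G47610 and AT3G62870 rose by log2 0.88 and 0.85, and AT1G18540, the main RPL6 gene, by log2 0.73 (SE 0.18).

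Of the 25 small-subunit genes 22 rose (median log2 0.89). The highest estimate of the 59 was that of *RPSAb* (AT3G04770, chromosome 3, 1309273 to 1311129), a minor gene for the laminin-receptor-like protein RPSA. It stood at 20.6, 14.7 and 18.3 CPM in *pifq* and 7.84, 4.79 and 5.71 in WT, without overlap, and rose by log2 1.55 (SE 0.26, edgeR adjusted p = 0.00132). Its gene model overlaps AT3G04780 on the same strand. *P40* (AT1G72370), the main RPSA gene, averaged 684 ± 193 CPM in *pifq* and 327 ± 45.7 in WT and rose by log2 1.07 (SE 0.23).

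RPS6 is the protein that the kinase S6K phosphorylates downstream of TOR. Its gene *RPS6* (AT4G31700) stood at 674, 748 and 600.2 CPM in *pifq* and 297, 376 and 302 in WT and rose by log2 1.05 (SE 0.16), and *EMB3010* (AT5G10360) rose by log2 0.55 (SE 0.13). *RPS5A* (AT3G11940), known for strong expression in dividing cells, rose by log2 0.59 (SE 0.18), below the median of the 59, and its minor paralog *RPS5B* (AT2G37270) by log2 0.73 (SE 0.13). The main genes of the families RPS2 (AT2G41840), RPS3 (AT3G53870), RPS4 (AT2G17360) and RPS9 (AT5G15200) rose by log2 0.60, 0.87, 0.67 and 0.89. AT2G41840 overlaps AT2G41835 on the same strand. RPS3 helps the message enter the ribosome, and RPS9 bears on the accuracy of its reading. The identical RPS18 proteins come from *PFL* (AT1G22780), whose mutant has pointed first leaves, AT1G34030 and *RPS18C* (AT4G09800), which rose by log2 0.80 (SE 0.19), 0.96 (SE 0.17) and 0.60 (SE 0.17).

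The 8 genes that did not pass in *pifq*/WT were of unlike kinds. *SAG24* (AT1G66580), an RPL10 gene first described in senescence, stood at 668, 881 and 909 CPM in *pifq* and 707, 681 and 758 in WT. Its groups overlap, and its estimate was the lowest of the 59, log2 0.20 (SE 0.17, edgeR adjusted p = 0.481). AT3G13580 (RPL7) stood at 71.2, 91.2 and 70 CPM in *pifq* and 57.4, 77 and 67.4 in WT (log2 0.20, SE 0.19, edgeR adjusted p = 0.507), and AT2G40010 (RPP0) at 24.5, 29.2 and 27.2 CPM in *pifq* and 20.8, 24.8 and 21.5 in WT (log2 0.27, SE 0.15, edgeR adjusted p = 0.244). Both overlap as well. AT1G74050 (RPL6) had an estimate of log2 0.37 (SE 0.22). AT3G28500 (RPP2) averaged 5.88 ± 1.94 CPM in *pifq* and 4.83 ± 1.71 in WT (log2 0.29, SE 0.38), and AT5G39850 (RPS9) 16.8 ± 4.59 CPM in *pifq* and 12.4 ± 2.56 in WT (log2 0.43, SE 0.27).

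The other 2 genes had estimates like those of genes that passed. AT5G35530 (RPS3), at log2 0.90 with an SE of 0.42, stood at 308, 132 and 129 CPM in *pifq* and 139, 85.2 and 81.7 in WT, and its replicate 1 was the highest in every genotype. AT4G34670, the main RPS3a gene, had no overlap of libraries at log2 0.64 (SE 0.22, edgeR adjusted p = 0.061). With the replicate number as a block, 6 of these 8 genes passed, all but *SAG24* and AT3G28500, and 57 of the 59 rose, against 24.6% of all genes. The 15 genes under 100 CPM in WT were more scattered (11 rose, median log2 0.74, SD 0.386) than the 44 above that level (40 rose, median log2 0.88, SD 0.208).

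Summed over its paralogs, each of the 23 families was higher in every *pifq* library than in every WT library. RPP0 had the highest log2 ratio of means, 1.09, at 4808 ± 507 CPM in *pifq* and 2254 ± 315 in WT, and RPL6 the lowest, 0.59, at 3424 ± 373 CPM in *pifq* and 2283 ± 237 in WT. In *pif145* the log2 ratios to WT lay between 0.39 (RPL6) and 0.73 (RPP0), with no overlap of libraries in 20 families, where 10.9% of all single genes were higher without overlap. In *pif3* they lay between 0.19 (RPL6) and 0.51 (RPSA), with no overlap in 14 families, beside 5.17% of all single genes. In *pifq*/WT the share of all single genes was 17.2%. These shares are not for sums over paralogs, so the family counts are given as a description.

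The comparisons of *pif145* and *pif3* with WT address the loss of some of the PIFs, and both share their WT libraries with *pifq*/WT. In *pif145*/WT 10 of the 59 genes rose, against 1.98% of all genes. The median log2 fold change was 0.51 (1.42-fold), beside -0.019 over all genes. *RPSAb* was the only gene to rise at least 2-fold (log2 1.05, SE 0.25), against 0.893% of all genes. The other 9 were AT4G10450, AT3G09200, AT3G53430, AT2G27710, *RPS6*, AT5G02870, *SAC52*, AT2G01250 (RPL7) and *EMB2296*, with log2 values of 0.52 to 0.76. *SAC52* stood at 6940, 8099.7 and 7141 CPM in *pif145*, each above its WT libraries. The lowest estimate was that of AT5G39850 (log2 -0.078, SE 0.27). Every *pif145* library was above every WT library in 42 genes, against 10.9% of all genes. The replicate numbers pair the libraries, and with the number as a block 54 genes rose, against 16.2% of all genes. Without the block the count was 0 without WT replicate 2 or WT replicate 3, 2 without WT replicate 1, 4, 1 and 1 without *pif145* replicate 1, 2 and 3, and 4 to 7 without a library of *pif3* or *pifq*.

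In *pif3*/WT none of the 59 genes passed by edgeR or DESeq2, against 0.0272% of all genes with a higher call. By edgeR 24 were higher at an unadjusted p under 0.05, against 545 of all 18356 genes. The median log2 fold change was 0.33 (1.26-fold), beside -0.008 over all genes. Of the 59 estimates 58 were positive, against 8949 of all 18356 genes. The exception among the 59 was AT2G40010 (log2 -0.005, SE 0.15). The highest estimates were those of AT5G35530 (log2 0.55, SE 0.42) and *P40* (log2 0.51, SE 0.23), which passed only with the replicate number as a block (edgeR adjusted p = 0.00109 and 0.000538). AT2G27720 (RPP2) stood at 823, 851 and 943 CPM in *pif3* and 589, 614 and 676 in WT. Its libraries do not overlap, and its log2 value was 0.48 (SE 0.14, edgeR adjusted p = 0.603, and 0.000121 with the replicate number as a block). Every *pif3* library was above every WT library in 26 genes, against 5.17% of all genes. With the replicate block 46 genes rose, against 5.11% of all genes. Within replicates 1, 2 and 3 the median log2 ratio was 0.39, 0.34 and 0.28.

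In *pifq*/*pif145*, where PIF3 is lost from seedlings already without PIF1, PIF4 and PIF5, none of the 59 genes passed by edgeR, against 0.354% of all genes with a higher call. By edgeR 22 were higher at an unadjusted p under 0.05, against 842 of all 18356 genes. By DESeq2 5 passed, for which the share of all genes is not given here. The median log2 fold change was 0.35 (1.28-fold), beside -0.004 over all genes. The highest estimate was that of AT5G39850 (log2 0.51, SE 0.27, edgeR adjusted p = 0.674, and 0.00194 with the block), and the lowest that of AT3G28500 (log2 -0.14, SE 0.38). In 27 genes every *pifq* library was above every *pif145* library, against 6.45% of all genes. With the replicate block 49 genes rose, against 7.72% of all genes.

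In *pifq*/*pif3*, where PIF1, PIF4 and PIF5 are lost from seedlings already without PIF3, 21 genes rose, against 5.59% of all genes. The median log2 fold change was 0.50 (1.42-fold), beside -0.007 over all genes. *RPSAb* rose by log2 1.18 (SE 0.25) and was the only gene past 2-fold, against 2.49% of all genes. AT3G53430 (RPL12) rose by log2 0.80, AT4G10450 (RPL9) by 0.77, AT3G04840 (RPS3a) by 0.76 and AT2G27710 (RPP2) by 0.73. The RPS2 genes *XW6* (AT1G58380) and AT3G57490 rose by 0.72 and 0.68. *SAG24*, at 662, 895 and 872 CPM in *pif3*, had the lowest estimate (log2 0.017, SE 0.17). Every *pifq* library was above every *pif3* library in 39 genes, against 14% of all genes. With the replicate block 55 genes rose, against 21.3% of all genes. Without the block the count was 0 without replicate 2 or replicate 3 of every genotype, 9 and 7 without *pif3* replicate 2 and 3, and 13 and 11 without *pifq* replicate 1 and 3.

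**Figure D3:**
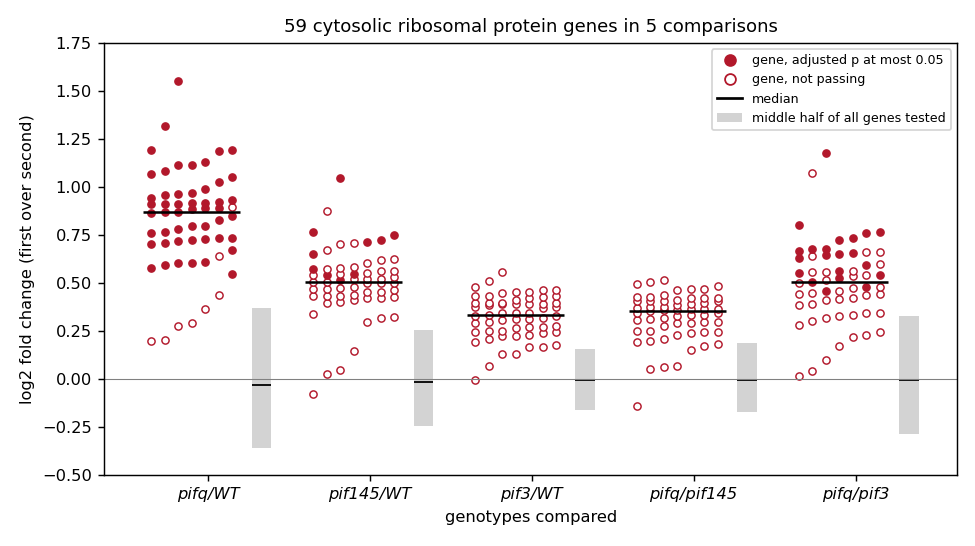
Log2 fold change of the 59 genes in the 5 comparisons, the first genotype over the second. Points are genes, filled where the adjusted p was at most 0.05. The medians are 0.87 in *pifq*/WT, 0.51 in *pif145*/WT, 0.33 in *pif3*/WT, 0.35 in *pifq*/*pif145* and 0.50 in *pifq*/*pif3*, all above the medians of all genes.

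In 53 of the 59 genes the genotype means stood in the order *pifq*, *pif145*, *pif3*, WT, high to low. The share of all genes in that order is not given here. The 59 genes were measured in the same 12 libraries, so the count is a description and not 53 separate results. A further contrast tested whether the loss of PIF3 had another effect without PIF1, PIF4 and PIF5 (*pifq*/*pif145*) than with them (*pif3*/WT). None of the 59 genes passed by edgeR or DESeq2, with 0 at an unadjusted p under 0.05 and 0 with the replicate block. Of all genes 0.109% passed by edgeR, and 2.56% with the block. At an unadjusted p under 0.05, 216 of all 18356 genes had a positive difference and 351 a negative one. In the 59 genes the difference of the 2 log2 fold changes had a median of 0.008 and lay between -0.25 and 0.38. Its median SE was 0.24 in the fit without the block, so that fit could not detect small differences in single genes. The block takes up differences shared within replicate numbers, and the SE under it is not given here.

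In 20 of the 23 families the most abundant paralog in WT was on top in all 12 libraries, the exceptions being RPP2, RPL6 and RPS3. Lower ranks were not counted. In RPL9, AT1G33120 and AT4G10450 supplied 14.6% and 15.5% of the transcripts in *pifq*, and 15.2% and 11.7% in WT. *P40* supplied 97.4% of the RPSA transcripts in *pifq* and 98.2% in WT, and AT5G15200 99.4% of those of RPS9 in *pifq* and 99.2% in WT. The 6 families with the widest gap between paralogs in *pifq*/WT were RPP2, RPP0, RPL10, RPL7, RPS6 and RPSA. For each, the log2 ratio of the paralog with the highest change to that with the lowest was compared between 3 *pifq* and 3 WT libraries by a two-sided exact permutation test. The smallest p that it can give is 0.1, so no pair could pass 0.05, and the pairs were picked for their gap.

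*SAC52* stood 3.89, 3.41 and 3.35 log2 units above *SAG24* in the *pifq* libraries and 2.84, 2.97 and 2.66 in the WT libraries, without overlap (exact permutation p = 0.1). The proteins are 94.1% identical. *SAG24* supplied 7.9% ± 1.41 of the RPL10 transcripts in *pifq* and 12.4% ± 1.19 in WT, at 819 ± 132 and 716 ± 39 CPM. In RPL7, AT2G01250 stood 3.16, 2.82 and 3.24 log2 units above AT3G13580 in *pifq* and 2.52, 2.2 and 2.35 in WT, without overlap (exact permutation p = 0.1). These proteins are 89.8% identical. AT2G01250 stood at 638, 643 and 662 CPM in *pifq* and 330, 355 and 344 in WT and rose by log2 0.92 (SE 0.11). The log2 ratio of *RPS6* to *EMB3010* was 0.96, 0.98 and 0.79 in *pifq* and 0.38, 0.49 and 0.34 in WT, without overlap (exact permutation p = 0.1), and *RPS6* supplied 65.2% ± 1.65 of the family in *pifq* and 56.9% ± 1.34 in WT. Here both genes rose, by unequal amounts.

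In RPP0, AT3G09200 stood 7.4, 7.29 and 7.56 log2 units above AT2G40010 in *pifq* and 6.43, 6.47 and 6.82 in WT, without overlap (exact permutation p = 0.1). The log2 ratio of *RPSAb* to *P40*, whose proteins share 60.8% of residues, was -5.46, -5.33 and -4.92 in *pifq* and -5.59, -6.04 and -5.66 in WT, without overlap (exact permutation p = 0.1). In RPP2, AT2G27710 supplied 59.8%, 53.8% and 57.8% of the transcripts in *pifq* and 53.7%, 46.2% and 50.8% in WT, narrowly without overlap. AT2G27720 supplied 42.6% on average in *pifq* and 49.4% in WT, also narrowly without overlap. AT3G28500 supplied 0.2% and 0.4%. The RPP2 pair AT2G27710 and AT3G28500, with 55.7% identity, overlapped (8.56, 7.23 and 8.21 in *pifq* and 7.73, 6.85 and 6.73 in WT, exact permutation p = 0.2). Within replicate numbers the *pifq* value of this ratio was higher by 0.83, 0.38 and 1.48. In the other 5 families too it was higher within each number, by 0.13 to 1.05. Each pair was picked for its gap in *pifq*/WT in these same libraries. The choice favoured this direction, so these values are no further support for it. For *SAC52* over *SAG24* the mean log2 ratio was 3.55 in *pifq*, 3.34 in *pif145*, 3.03 in *pif3* and 2.82 in WT, for the RPL7 pair 3.07, 2.77, 2.47 and 2.36 in the same order, and for *RPS6* over *EMB3010* 0.91, 0.74, 0.57 and 0.40. For the RPP0 pair the means were 7.42, 7.29, 7.05 and 6.57, and these 4 series stand in the order of the summed levels. The other two do not. For *RPSAb* over *P40* the means were -5.24 in *pifq*, -5.43 in *pif145*, -5.87 in *pif3* and -5.76 in WT, and for the RPP2 pair 8, 7.44, 7.47 and 7.1. At the other end, the paralogs' estimates lay 0.021 log2 units apart in RPL8, 0.030 in RPS3 and 0.034 in RPL7a. The share of 36-base windows in the last 500 bases that occur in 1 gene alone was lowest in *XW6* (79.4%), *PGY2* (80.9%) and AT2G27720 (89.5%) and at least 91.4% in the other genes, so levels of those 3 are the least certain.

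**Figure D4:**
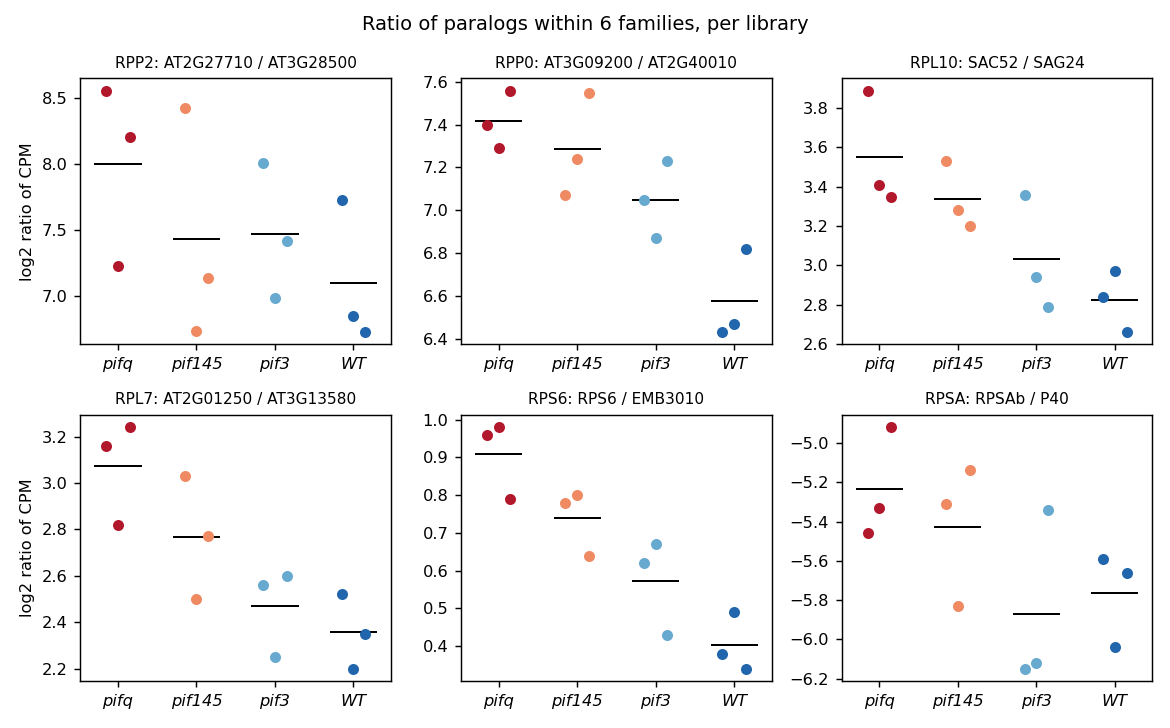
Log2 ratio of CPM between the paralogs with the highest and the lowest change in 6 families, per library, from *pifq* at the left to WT at the right, with bars at the mean of 3. Each panel has its own axis, which does not start at 0. The *pifq* and WT points lie apart in 5 panels and overlap in RPP2.

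Promoters were searched in the 250 bases before each annotated start, on both strands, in TAIR10.1 with RefSeq's gene models. Windows were not trimmed, and some hold bases of annotated exons, up to all 250 in AT3G09200 and *RPSAb*. Site II (TGGGCC or TGGGCT) is a motif of TCP factors known from ribosomal protein genes. It was found in 42 of the 59 promoters (71.2%), in 66.9% of those of 133 other cytosolic ribosomal protein genes and in 19.4% of 26711 protein-coding loci, and 2 or more matches in 52.5%, 49.6% and 12.1%. The telo-box (AAACCCTA), known to lie close to the start of such genes, was found in 15.3% of the 59, 21.8% of the other ribosomal protein genes and 4.44% of all loci. With 50 bases after the start included these shares were 50.8%, 48.9% and 6.17%. The motifs that PIFs bind, the G-box (CACGTG) and the PBE-box (CACATG), were found in 1.69% and 11.9% of the 59 promoters and in 6.58% and 11.2% of all loci. The paper linked PIF3-binding sites to genes over a much longer upstream distance than this window. A match is a run of letters and not a site shown to be used.

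**Figure D5:**
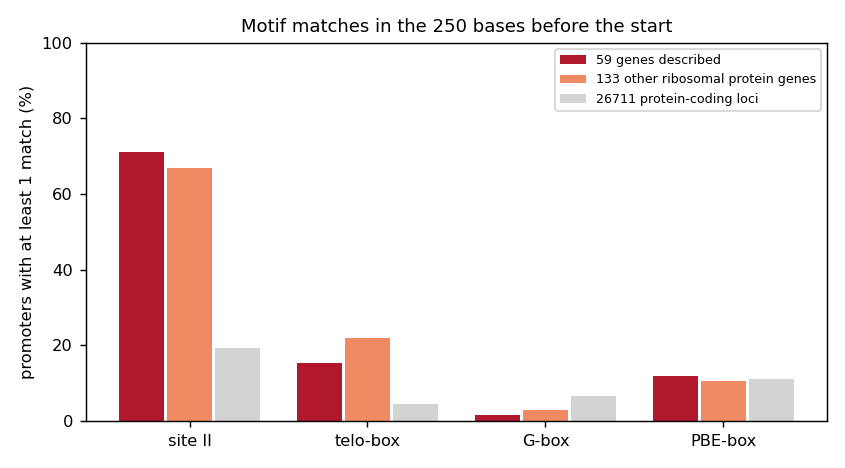
Share of promoters, in percent, with at least 1 match to each motif in the 250 bases before the start, for the 59 genes, the 133 other ribosomal protein genes and the 26711 protein-coding loci. The site II bars stand at 71.2%, 66.9% and 19.4%, and the PBE-box bars at 11.9%, 10.5% and 11.2%.

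By site II matches, the 17 genes with none had a median log2 fold change of 0.91 in *pifq*/WT (14 rose), the 11 with 1 also 0.91 (9 rose), and the 31 with 2 or more 0.76 (28 rose). The promoters of 2 paralog pairs are printed because their letters and their changes run in opposite ways, and they were chosen after the values were seen. In RPL7 the gene that rose, AT2G01250, has 3 site II matches, and AT3G13580, which did not pass, has none. In RPL9 *PGY2* has 4, and AT4G10450, with the larger estimate, has none. Capitals mark site II and PBE-box matches on either strand. Each sequence runs up to the base before the annotated start and holds no annotated exon.
AT2G01250 (chr2:134456-134705, minus strand): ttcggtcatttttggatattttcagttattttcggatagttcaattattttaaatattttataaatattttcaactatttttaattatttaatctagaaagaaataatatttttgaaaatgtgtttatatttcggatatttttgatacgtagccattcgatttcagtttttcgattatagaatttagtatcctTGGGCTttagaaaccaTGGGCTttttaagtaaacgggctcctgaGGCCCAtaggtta
AT3G13580 (chr3:4432797-4433046, plus strand): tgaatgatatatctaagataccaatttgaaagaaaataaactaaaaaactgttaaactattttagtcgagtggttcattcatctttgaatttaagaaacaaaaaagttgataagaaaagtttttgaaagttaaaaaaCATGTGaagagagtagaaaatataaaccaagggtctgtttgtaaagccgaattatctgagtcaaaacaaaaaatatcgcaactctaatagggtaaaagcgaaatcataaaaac
PGY2 (chr1:12022975-12023224, plus strand): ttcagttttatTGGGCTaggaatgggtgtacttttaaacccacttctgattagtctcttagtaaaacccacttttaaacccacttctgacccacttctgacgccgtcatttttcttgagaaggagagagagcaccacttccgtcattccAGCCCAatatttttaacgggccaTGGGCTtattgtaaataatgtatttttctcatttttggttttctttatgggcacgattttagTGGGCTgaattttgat
AT4G10450 (chr4:6464559-6464808, minus strand): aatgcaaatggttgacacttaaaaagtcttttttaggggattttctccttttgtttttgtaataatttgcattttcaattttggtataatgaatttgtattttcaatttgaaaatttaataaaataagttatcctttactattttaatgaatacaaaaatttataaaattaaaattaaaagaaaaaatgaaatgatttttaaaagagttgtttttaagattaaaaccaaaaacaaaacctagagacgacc

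The 133 other cytosolic ribosomal protein genes are not the whole remaining set, since listed loci whose annotation names no ribosomal protein were dropped. Those included loci listed for RPL21, RPL26, RPL40, RPS10, RPS27a and RPS28. Of the 133 genes 119 were tested. Of these 108 rose in *pifq*/WT (median log2 0.89), 32 in *pif145*/WT (0.53, 116 with the replicate block) and 54 in *pifq*/*pif3* (0.57, 117 with the block). None passed in *pif3*/WT by edgeR (0.32, with 50 at an unadjusted p under 0.05 and 97 with the replicate block) and none in *pifq*/*pif145* (0.36, with 58 and 108). The unadjusted higher counts over all 18356 genes were 545 and 842. Of 10 ribosome biogenesis genes 7 rose in *pifq*/WT (median log2 0.88), and all 10 with the replicate block. *FIB2*, for the rRNA methylase fibrillarin, rose by log2 1.53 (SE 0.16), its paralog *FIB1* had an estimate of 0.28 (SE 0.31) and passed only with the block (0.23, edgeR adjusted p = 0.0437), and the nucleolin gene *NUC-L1* rose by log2 0.95 (SE 0.16). Of 26 translation factors and ribosome-associated proteins 12 rose (median log2 0.55), and 21 with the block. The eEF2 gene *LOS1* rose by log2 0.67 (SE 0.11), the ribosome scaffold gene *ATARCA* (RACK1) by 0.87 (SE 0.14) and the eEF1B gene AT5G12110 by 2.71 (SE 0.23), while the initiation factor gene *EIF4G* (log2 -0.21, SE 0.25) did not pass. Of 4 genes of the TOR pathway, which controls ribosome production and RPS6 phosphorylation, *S6K2* changed by log2 -0.65 (SE 0.18, edgeR adjusted p = 0.0223) in *pifq*/WT, and *TOR*, *RAPTOR1* and *PK1* had estimates of -0.60, -0.29 and -0.42 and did not pass. With the block *TOR* and *PK1* passed as well (log2 -0.57 and -0.43, edgeR adjusted p = 0.0149 and 0.000213), so that 3 of the 4 were lower, against 25.9% of all genes.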

How the data were processed

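RNA was measured by 3′-end-captured directional RNA-seq in 12 libraries, 3 for each of the 4 genotypes, which the methods describe as biological replicates. Reads of 36 bases were aligned by the authors with Bowtie (version 0.12.7, after CASAVA 1.7.0, per the submitters' processing notes), with no mismatch, to representative transcripts of TAIR9 by the methods and TAIR10 by the notes, and only unique reads in the last 500 bases of the coding strand were kept. The deposited values are raw counts per locus, for 33602 loci, with no normalization, and 0 columns of other samples were present. No molecular identifiers were used, so counts carry amplification as well as sampling.

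Counts were scaled by TMM, filtered with filterByExpr and tested with edgeR 4.0.16 (R 4.3.3) by a quasi-likelihood fit of genotype over all 12 libraries, with Benjamini-Hochberg adjustment over 18356 genes. Calls were made at an adjusted p of at most 0.05, and the SE is that of the log2 fold change in the fit without the replicate block. The procedure was tested on simulated counts, with changes of at least 2-fold and no differences shared within a replicate number. That test does not measure the power for smaller changes in these libraries. Replicates of a genotype differed beyond sampling noise (every pair had a chi-square of 37.5 or more per degree of freedom), so each counted once. Libraries of the same number deviated together: the 18 same-number correlations of deviations from genotype means were 0.51 to 0.68, those of different numbers -0.49 to 0, and each of the 12 libraries was most like its own number. The pairing is seen in the data and in the platform (replicate 1 on another sequencer), and values with the number as a block stand beside the counts and named genes whose calls they change.

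Genes were named by rule: those passing in a comparison (the 8 with the largest change where more passed), the highest and lowest estimate of each comparison, the most abundant paralog of each family in WT and the paralog pairs of the 6 widest gaps. The genes of 1 family are not reported by name here, though counts and medians include them. Further genes were named after their values were seen. The genes and lists were chosen with earlier results of these data known. Coordinates, proteins and promoters come from RefSeq's annotation of TAIR10.1, in which 32835 of the loci (97.7%) were found. Alternatives covered scaling, filter, DESeq2 1.42.0, the block, a platform term, the libraries fitted and leaving out replicates.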

Additional observations from a re-analysis of the deposited data

How the results depend on the processing

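Without scaling factors the median of all genes was -0.196 in *pifq*/WT, -0.117 in *pif145*/WT and -0.111 in *pif3*/WT, and the medians of the 59 genes were 0.71, 0.40 and 0.23, with 0.44 in *pifq*/*pif3*. Relative to all genes the shift in *pifq*/WT was 0.91 without scaling and 0.90 with it. Of all calls 32.9% were then higher in *pifq*/WT (55.1% with TMM), 33.5% in *pif145*/WT (59.6%), 20% in *pifq*/*pif145* (36.3%) and 39.2% in *pifq*/*pif3* (51.8%). The count of 10 in *pif145*/WT was 2 without scaling, 6 without a filter, 16 at 5 CPM in 3 libraries, 54 with the replicate block, 48 with a platform term, 0 with only the genotypes compared and 31 by DESeq2. The count of 0 in *pif3*/WT was 46 with the block, and that of 0 in *pifq*/*pif145* was 49 with the block, 13 with the platform term and 5 by DESeq2. The count of 21 in *pifq*/*pif3* was 13 without scaling, 55 with the block, 45 with the platform term, 6 with only the genotypes compared and 33 by DESeq2. The cause of these differences was not tested. Without scaling, 161 of all genes rose in *pif145*/WT (363 with TMM) and 647 in *pifq*/*pif3* (1027). Shares with the block are given above. For the other settings, and for the fits with samples left out, no such share is given. Those counts do not tell a change in the 59 genes from one in all calls. The block did not end a call of any named gene, and in *pifq*/WT it gave 57 in place of 51. Leaving out 1 replicate number gave 19 to 50 genes in *pifq*/WT, 0 to 7 in *pif145*/WT and 0 to 21 in *pifq*/*pif3*, and leaving out 1 library 42 to 52, 0 to 7 and 7 to 24, with fewer samples in each fit. Medians then lay at 0.80 to 0.91 in *pifq*/WT, 0.48 to 0.53 in *pif145*/WT, 0.31 to 0.35 in *pif3*/WT, 0.30 to 0.39 in *pifq*/*pif145* and 0.48 to 0.55 in *pifq*/*pif3*. The telo-box share of 15.3% was 50.8% with 50 bases after the start.

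Among named genes, directions turned only in estimates that had not passed. Leaving out a library or a replicate number, the log2 fold change lay between -0.01 and 0.623 for AT3G28500 in *pifq*/WT, -0.479 and 0.098 for the same gene in *pifq*/*pif145*, -0.233 and 0.165 for AT5G39850 in *pif145*/WT, -0.136 and 0.081 for AT2G40010 in *pif3*/WT, and -0.111 and 0.152 for *SAG24* (AT1G66580) in *pifq*/*pif3*. AT2G40010 was at 0.003 with DESeq2 size factors and 0.004 by DESeq2, and *SAG24* at -0.041 without scaling.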
